A study of Homo sapiens with 8 samples.

Results

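The 26S proteasome is the protease that degrades proteins tagged with ubiquitin, and the transcripts of its subunits, caps and assembly factors were followed in breast cancer cells at low and high glucose. Members were the rows of the expression table whose symbols run from PSMA to PSMG with a number, together with PSMF1, POMP and ADRM1, and 48 of the 21059 genes in the table met this rule. They comprise 14 subunits of the 20S core, 18 subunits of the 19S regulatory particle, the 3 inducible catalytic subunits of the immunoproteasome, 5 other caps and inhibitors, and 8 assembly factors. The tissue-restricted subunits PSMA8 and PSMB11 were not analysed here.

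RNA was sequenced from MDA-MB-157, a breast cancer cell line that is negative for the estrogen receptor. Of the 8 libraries, 4 came from cells in 5 mM glucose (low glucose, LG) and 4 from cells in 25 mM glucose (high glucose, HG), all after 48 hours. Per the study's methods, all cells were first adapted to low glucose and then kept without serum, and the high concentration models the hyperglycemia of diabetes. No osmotic control is among the 8 libraries, so an effect of glucose and an effect of osmolarity cannot be told apart, and a single line stands for the tumor type. The labels do not state whether replicates were separate cultures, so the p-values measure the spread between these libraries. Markers of the line were read as a check of the label. ESR1, the estrogen receptor, lay at 0 to 0.170 CPM in all 8 libraries, and KRT19, a luminal keratin, at 0 to 0.0825 CPM. PGR, the progesterone receptor, was detected at 4.33 to 5.95 CPM (log2 change 0.14, adjusted p = 0.255). Transcripts of ERBB2, KRT8, KRT18 and VIM were present and lower at high glucose, with means that went from 63.6 to 39.2, 131 to 88.3, 233 to 170.1 and 4091 to 2967 CPM.

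The 20S core is a barrel of stacked alpha and beta rings whose catalytic beta subunits PSMB5, PSMB6 and PSMB7 cut proteins into peptides. The 19S particle binds ubiquitin chains, removes them and feeds the unfolded protein into the barrel. Interferon induces PSMB8, PSMB9 and PSMB10, which take the places of PSMB5, PSMB6 and PSMB7 in newly built particles, and the PSME1 and PSME2 cap, and these forms are known for making peptides that are presented on MHC class I. Cells that lack proteasome activity raise subunit transcripts together through the transcription factor NFE2L1.

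Values are counts per 1000000 reads (CPM) scaled by the trimmed mean of M values (TMM), and a log2 change is the difference of means of log2(CPM + 1), high minus low glucose. Values of single libraries follow the order of replicates 1 to 4, low glucose first, and positions are those of RefSeq on GRCh38.p14. The table represented about 9721640 to 12482500 reads per library, and 3 reads corresponded to 0.212 to 0.267 CPM. The proteasome genes lay far above that level, since the member with the lowest mean over the 8 libraries was at 8.63 CPM. Together the 48 genes took 4737 to 4923 CPM at low glucose and 4804 to 5636 CPM at high glucose. The highest of these sums came from HG replicate 1, and the sums of the other 7 libraries spanned 4737 to 4969 CPM.

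HG replicate 1 stood apart for these genes in a way that followed transcript length. It had the highest value of its group in 41 of the 48 members, including all 14 core subunits, and the lowest in 4. The difference in log2(CPM + 1) between HG replicate 1 and the mean of the other 3 high glucose libraries had a median of 0.31 over the 15 members with transcripts shorter than 1100 bases and of 0.09 over the 16 members longer than 2000 bases. The ends of the scale were PSMB10, an inducible subunit with a short transcript, at 0.54 and PSME4, a long cap protein, at -0.21. Over 11223 genes of the table, the rank correlation of that library's deviation with transcript length was -0.65, and it was 0.25, 0.34 and 0.47 for HG replicates 2, 3 and 4 and -0.13 to 0.06 for the low glucose libraries. Each deviation was taken from the mean of the other 3 libraries of the group. The reference of HG replicates 2, 3 and 4 thus holds HG replicate 1, whose trend alone would move their values the opposite way. How far these libraries have length trends of their own was not tested. The correlations are descriptions across genes, which share libraries. Results that rest on HG replicate 1 are therefore given with and without it. They are also given after a smooth trend with transcript length was subtracted from each library, low and high glucose alike. That step also takes out a length trend that differs between the groups.

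**Figure D1:**
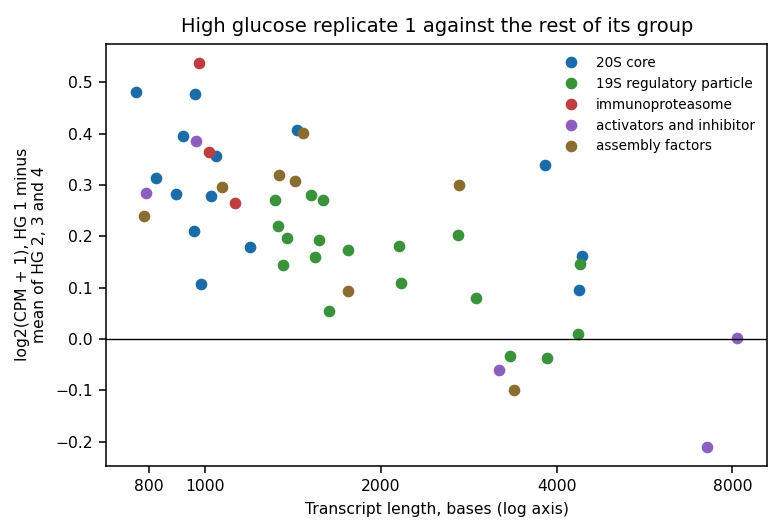
Difference in log2(CPM + 1) between HG replicate 1 and the mean of HG replicates 2, 3 and 4 (vertical axis) against transcript length in bases (horizontal, log axis) for the 48 proteasome genes, coloured by class. Short transcripts lie high, up to 0.54 for PSMB10, and PSME4 lies lowest at -0.21.

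Some proteasome transcripts were higher at high glucose and others lower, and most members did not pass the test. With limma at an adjusted p under 0.05 over all 21059 genes, 13 of the 48 members were higher at high glucose and 6 were lower, while 29 were not called. In the whole table, 22.0% of genes were called higher and 24.8% lower, so the members' shares of 27.1% and 12.5% are read against those values. Among the 11297 genes with a mean of at least 5 CPM, to which all 48 members belong, 33.6% were called higher and 33.3% lower. The groups did not overlap in 12 members that lay higher and 6 that lay lower, where 20.9% and 23.6% of all genes did so in each direction. CPM values are relative to the other reads of a library, so the number of cells and the amount of RNA per cell cannot be read from them.

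The changes were small. The median size of the log2 change, regardless of sign, was 0.15 over the members, against 0.35 over the genes with a mean of at least 5 CPM. The median signed change was 0.05 for the members and -0.01 for those genes. Only 7 members differed by more than 0.3 on the log2 scale, and none by more than 1. The 7 were PSMD12, ADRM1, PSMC6 and POMP, which rose, and PSMB10, PSMB9 and PSME1, which fell. Of the 19 calls, 14 held when each library in turn was left out.

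**Figure D2:**
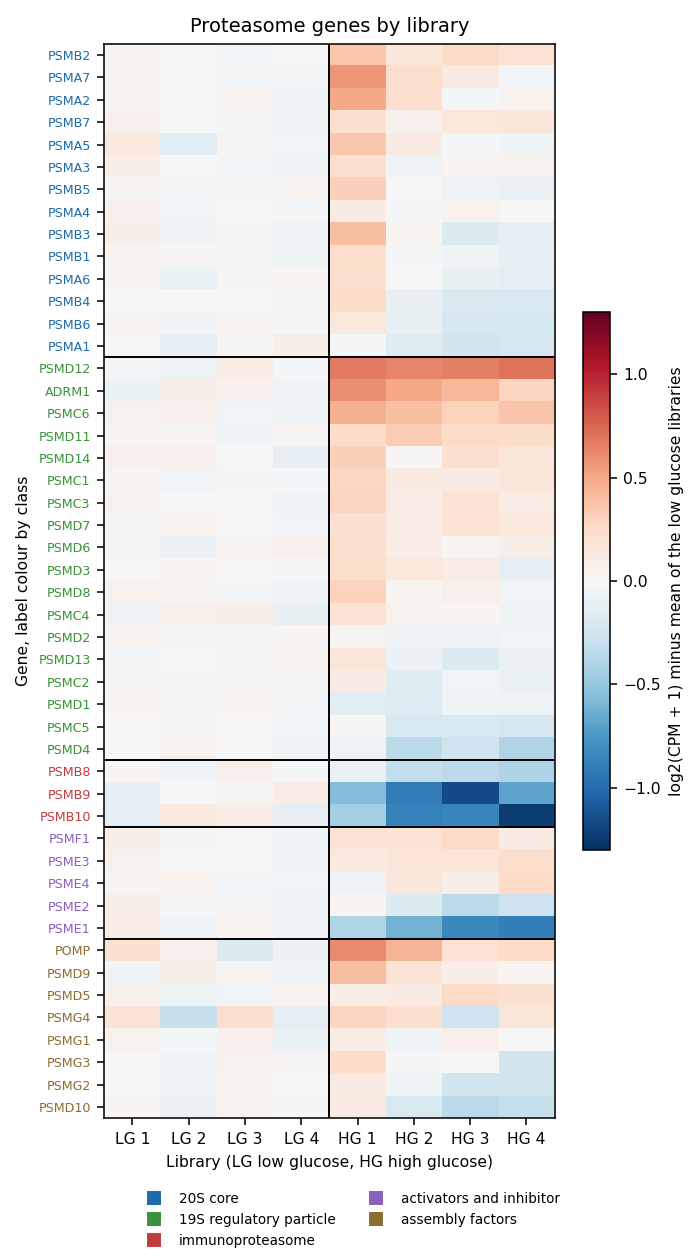
Heat map of log2(CPM + 1) minus the mean of the 4 low glucose libraries for the 48 proteasome genes (rows, label colour by class, ordered by log2 change within a class) in the 8 libraries (columns). PSMD12, ADRM1 and PSMC6 are red in all 4 high glucose columns, PSMB9, PSMB10 and PSME1 are blue in all 4, and HG 1 is the reddest column of the core.

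The immunoproteasome showed the clearest pattern by class, since all 3 inducible subunits fell and their median log2 change was -0.83, the lowest of the 5 classes. Among genes with at least 5 CPM, 33.3% were called lower. PSMB8 (ENSG00000204264.10, chr6:32840717-32844679), the inducible counterpart of PSMB5, was at 60.2, 56.8, 62.0 and 58.1 CPM in LG replicates 1 to 4 and at 55.7, 47.4, 46.5 and 44.8 CPM in HG replicates 1 to 4. Every high glucose library lay below every low glucose library, with HG replicate 1 close under the lowest of them. The means were 59.3 ± 2.30 and 48.6 ± 4.86 CPM (SD, n = 4), and the log2 change was -0.29 (SE 0.0689, adjusted p = 0.0119, limma).

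PSMB9 (ENSG00000240065.8, chr6:32854192-32859851), which replaces PSMB6, was at 15.6, 16.7, 17.0 and 18.0 CPM at low glucose and 11.1, 8.45, 6.93 and 10.0 CPM at high glucose. The groups were well separated, and HG replicate 1 was again the highest of its group. PSMB9 fell by 45.8% on the CPM scale, with a log2 change of -0.83 (SE 0.13, adjusted p = 0.00171).

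PSMB10 (ENSG00000205220.12, chr16:67934506-67936850), which replaces PSMB7, was at 10.4, 12.4, 12.1 and 10.4 CPM at low glucose and 8.02, 5.68, 5.83 and 4.26 CPM at high glucose. No high glucose library reached the lowest low glucose library, and the mean fell by 47.5%. Its log2 change was -0.85 (SE 0.16, adjusted p = 0.00419). Of the PSMB10 sequence words, 51.6% also occur in other gene models. The model that held the most was at 2.46 CPM, with a log2 change of 0.25 (adjusted p = 0.307). Reads of PSMB10 and that model may have been divided between them.

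The calls of the 3 inducible subunits held without HG replicate 1, with log2 changes of -0.35, -0.92 and -0.98 for PSMB8, PSMB9 and PSMB10. They also held with the length trend removed, at -0.17, -0.72 and -0.73. The immunoproteasome is abundant in leukocytes, and markers of these cells were read beside it. PTPRC, the pan-leukocyte marker, was at 0 to 0.178 CPM in all libraries, below the value of 3 reads in each. CD14, a monocyte gene, was at 1.58, 1.41, 1.19 and 0.801 CPM at low and 5.79, 4.78, 3.63 and 2.76 CPM at high glucose, so the summed level of the 2 of 4 listed immune markers that were in the table was 0.947 to 1.67 CPM at low and 2.93 to 5.86 CPM at high glucose. That sum was thus higher where the inducible subunits were lower.

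Of the constitutive counterparts, 1 rose and the other 2 were not called with all libraries. PSMB5 (ENSG00000100804.18), with chymotrypsin-like activity, was at 118, 116, 116 and 119 CPM at low glucose and 146, 118, 112 and 111 CPM at high glucose. The groups overlapped, and the log2 change was 0.04 (95% interval -0.16 to 0.24, adjusted p = 0.748). Its sign turned without HG replicate 1, to -0.05, and with the length trend removed PSMB5 was called higher, at 0.16 (adjusted p = 0.00534).

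PSMB6 (ENSG00000142507.10), with caspase-like activity, was at 118, 112, 117 and 114 CPM and 127, 108, 99.8 and 98.5 CPM, and HG replicate 1 was the highest of all 8 libraries whereas the other 3 high glucose libraries were the lowest. The log2 change was -0.10 (95% interval -0.29 to 0.09, adjusted p = 0.362), and without HG replicate 1 PSMB6 passed the test as lower, at -0.18 (adjusted p = 0.00966). PSMB7 (ENSG00000136930.13), with trypsin-like activity, rose modestly. It was at 108, 105, 103 and 100.2 CPM and 121, 108, 114 and 115 CPM, with the lowest high glucose library just above the highest low glucose one, a log2 change of 0.14 (SE 0.0389, adjusted p = 0.0212). The PSMB7 call was lost without LG replicate 3 or LG replicate 4.

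Per kilobase of transcript, the inducible subunits were the minor form at both glucose levels. PSMB8 stood at 46.9% ± 2.06 (SD, n = 4) of PSMB5 at low glucose and 37.2% ± 1.29 at high glucose. PSMB9 went from 11.8% ± 0.872 to 6.83% ± 1.13 of PSMB6, and PSMB10 from 10.98% ± 1.11 to 5.20% ± 1.20 of PSMB7. In each of the 3 pairs the 4 high glucose ratios lay below the 4 low glucose ratios.

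The log2 ratio of inducible to constitutive subunit differed by -0.33, -0.80 and -1.10 for PSMB8 to PSMB5, PSMB9 to PSMB6 and PSMB10 to PSMB7. For each pair the exact 2-sided permutation p was 0.0286, the smallest that 4 against 4 libraries can give, and it was also 0.0286 adjusted over the 3 pairs. Both genes of each pair have short transcripts. Without HG replicate 1 the differences were -0.31, -0.82 and -1.23. The ratio comparison was added after the values of these genes had been seen.

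**Figure D3:**
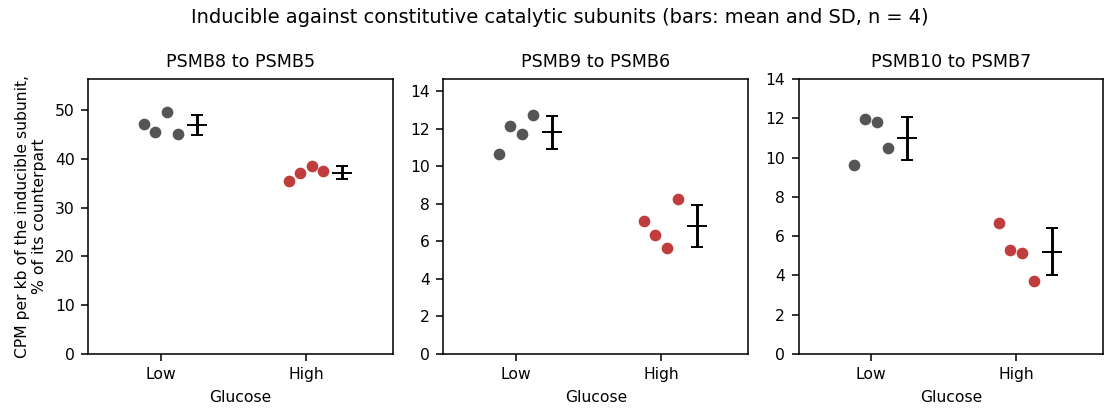
CPM per kilobase of each inducible subunit as a percent of its constitutive counterpart (vertical axes from 0) at low and high glucose, with 1 point per library and the mean and SD (n = 4) beside them. The high glucose points lie below the low glucose points in all 3 panels, by the largest proportion for PSMB10 to PSMB7.

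Promoter sequence was read for the members because interferon acts on the inducible subunits through a known DNA element. RefSeq promoters (GRCh38.p14, 250 bases before to 50 after a transcript start) were at hand for 42 of the 48 members, 52 promoters in all. The interferon-type motif GAAANNGAAA, searched on both strands, occurred in 3.57% of all 35116 promoters and in those of 7 members, PSMA4, PSMB4, PSMB8, PSMB10, PSME1, PSME2 and PSMG4. In 5 of the 7 the middle letters were the same, and this exact run of 10 bases, taken from PSMB10 after the matches had been seen, was in 35 promoters of the whole set, or 0.0997%. The 5 sites are shown to let the shared run be compared, 5′ to 3′ on the strand of the gene, with the motif or its reverse complement in capitals.
PSMB8 (chr6:32844032-32844061, minus strand): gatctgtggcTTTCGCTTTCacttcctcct
PSMB10 (chr16:67936852-67936881, minus strand): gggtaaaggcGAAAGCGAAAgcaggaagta
PSME1 (chr14:24136189-24136218, plus strand): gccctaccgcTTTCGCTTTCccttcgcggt
PSME2 (chr14:24146619-24146648, minus strand): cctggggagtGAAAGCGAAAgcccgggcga
PSMG4 (chr6:3258904-3258933, plus strand): ttccggggccGAAAGCGAAAgcgcgctcgg

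The first base of the run lay at -4, -21, 6, -28 and -33 relative to an annotated transcript start of PSMB8, PSMB10, PSME1, PSME2 and PSMG4, respectively. For PSMB8 and PSMG4 that start lies inside the annotated gene, not at its outer end. The run thus sits close to a start in each, and PSMB8 and PSME1 carry it in the orientation opposite to the other 3. Of the 5 genes, PSMB8, PSMB10 and PSME1 fell, whereas PSME2 (log2 change -0.19, adjusted p = 0.0860) and PSMG4 (0.10, adjusted p = 0.678) did not pass. PSMB9, which fell, had no match to the motif in its window. A match is a description of letters and not of binding.

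A second motif was read for the members that rose, the antioxidant-response core TGACNNNGC, to which NFE2L1 and its relative NFE2L2 bind together with small MAF proteins. It was in 17 of the 52 member promoters, 32.7%, and in 13.3% of all promoters, on either strand. The sites are shown for PSMD12 and ADRM1, the members that rose most, and for PSMB9, which fell. PSME1 also held a match.
PSMD12 (chr17:67366724-67366753, minus strand): gagacaaaaccTGACGCTGCaggctggagt
ADRM1 (chr20:62302748-62302777, plus strand): ccgctcccctaTGACACAGCaacaataggg
PSMB9 (chr6:32854033-32854062, plus strand): agggcggggctGCCTCGTCActtgtctcgg
Of the 12 members that rose and had a promoter, 3 held this motif, and of the 5 that fell, 3 did. Matches were therefore present in members that changed in either direction. Of other short motifs, CCAAT was in 21 of the member promoters and 34.6% of all promoters, the ETS-type CCGGAAG in 15 and 10.3%, and TATAAA in 4 and 11.5%.

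Among the interferon-induced partners of the immunoproteasome, 4 of 8 listed genes fell at high glucose and 2 rose, with a median log2 change of -0.22. Of all genes, 24.8% were called lower and 22.0% higher. At a mean of at least 5 CPM, which every listed partner but B2M reached, 33.3% were called lower and 33.6% higher. In a comparison added after the values were seen, the median was -0.42 over the 7 genes other than B2M, which lay at or below 0.165 CPM in every library. TAPBP, the tapasin that loads peptides on MHC class I, went from 140.4 ± 4.83 to 84.8 ± 2.70 CPM (log2 change -0.72, adjusted p = 5.03e-06). ERAP2 and ERAP1, the peptidases that trim those peptides, went from 66.9 ± 3.50 to 33.3 ± 3.62 and from 37.8 ± 1.18 to 23.4 ± 1.89 CPM, with log2 changes of -0.99 and -0.67.

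Not every gene of this pathway went down. IRF1 and TAP2 rose, by 0.17 and 0.24 on the log2 scale. TAP1, a peptide transporter whose annotated span ends 487 bases from that of PSMB9 on chromosome 6, was at 72.5, 71.9, 70.2 and 68.4 CPM at low and 81.6, 71.1, 62.6 and 65.1 CPM at high glucose. The groups overlapped, and the log2 change of -0.02 (adjusted p = 0.898) stands beside -0.83 for its neighbour PSMB9.

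The 5 activators and inhibitors moved in both directions, with 2 that rose and 1 that fell. These shares of 40% and 20% stand beside 33.6% and 33.3% of genes with at least 5 CPM. PSME1 (ENSG00000092010.15, chr14:24136194-24138962), a subunit of the interferon-induced cap that opens the core without ubiquitin, was at 74.3, 66.3, 71.0 and 66.9 CPM at low glucose and 52.7, 45.2, 38.6 and 36.97 CPM at high glucose. The groups were far apart, and PSME1 fell by 37.7% (log2 change -0.68, SE 0.11, adjusted p = 0.00199). An exon of PSME1 overlaps EMC9 on the opposite strand, whose means were 6.76 and 8.20 CPM.

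PSME2 (ENSG00000100911.16, chr14:24143365-24146610) forms the same cap with PSME1 and is encoded 4402 bases from it on chromosome 14. It was at 64.9, 60.7, 62.4 and 58.9 CPM and 62.6, 54.4, 48.3 and 51.2 CPM, and only HG replicate 1 reached into the range of the low glucose libraries. Its log2 change of -0.19 did not pass (95% interval -0.38 to -0.01, adjusted p = 0.0860), but without HG replicate 1 it was -0.26 (adjusted p = 0.00594), and with the length trend removed it was -0.07 (adjusted p = 0.236).

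The other 3 genes of this class had log2 changes above 0. PSMF1 (ENSG00000125818.18), a regulator first described as an inhibitor of the core, was at 120.3, 113, 114 and 109 CPM and 129, 129, 136 and 123 CPM and rose without overlap (log2 change 0.18, SE 0.0391, adjusted p = 0.00752). PSME3, a nuclear cap protein, rose by 0.17 on the log2 scale (adjusted p = 0.00308). PSME4, a cap found with acetylated histones, had a log2 change of 0.11 that passed the test only without HG replicate 1, at 0.16. The median of the 5 was 0.11, and 0.16 without HG replicate 1.

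In the 19S regulatory particle, 7 of 18 subunits rose and 2 fell, with a median log2 change of 0.09. The share that rose, 38.9%, lay near the 33.6% of genes with at least 5 CPM, and the share that fell, 11.1%, below their 33.3%. PSMD12 (ENSG00000197170.10, chr17:67337916-67366577), a scaffold subunit of the lid that covers the deubiquitinase, changed most of the 13 members that rose. It was at 118, 115, 129 and 119 CPM at low glucose and 193, 187, 191 and 196 CPM at high glucose. The 4 high glucose libraries were nearly alike, HG replicate 1 among them, and the log2 change was 0.67 (SE 0.0369, adjusted p = 1.16e-05), a rise of 59.3% in CPM.

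ADRM1 (ENSG00000130706.13, chr20:62302896-62308862), a ubiquitin receptor of the base, was at 53.6, 60.4, 59.1 and 55.1 CPM at low and 87.0, 81.1, 77.1 and 69.5 CPM at high glucose. All high glucose libraries lay above all low glucose libraries, and the rise of 37.9% came with a log2 change of 0.45 (SE 0.0732, adjusted p = 0.00186). ADRM1 overlaps exons of LAMA5 on the opposite strand, which moved the other way, from 55.0 to 41.1 CPM.

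PSMC6 (ENSG00000100519.12, chr14:52707200-52728590), a subunit of the ATPase ring that unfolds substrates, was at 72.8, 73.0, 68.5 and 67.3 CPM and 97.6, 92.6, 87.1 and 91.4 CPM. The ranges were separate, with a log2 change of 0.38 (SE 0.0428, adjusted p = 0.000308). Other gene models share 33.8% of the PSMC6 sequence words, but the model that held the most lay at 0.169 CPM.

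By position in the particle, 3 of the 6 ATPases of the base rose (PSMC1, PSMC3 and PSMC6), 3 of the 8 lid subunits rose (PSMD7, PSMD11 and PSMD12), and of the 4 other base subunits 1 rose (ADRM1) and 2 fell (PSMD1 and PSMD4). The log2 changes of PSMD11, which holds the lid to the core, and of PSMD7, the partner of the deubiquitinase, were 0.26 and 0.15. PSMC1 and PSMC3 both stood at 0.16. The PSMC3 call was lost without LG replicate 2, 3 or 4 or without HG replicate 3, each with an adjusted p of 0.0544 to 0.0682.

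The ubiquitin receptors of the base moved apart. ADRM1 rose, as above, and PSMD4, another intrinsic receptor, fell from 89.2 ± 2.55 to 74.3 ± 7.82 CPM (log2 change -0.27, adjusted p = 0.0180), a call that held in all 8 fits that left out a library. PSMD1, a large scaffold of the base, fell by 0.11 on the log2 scale (adjusted p = 0.0252), but its call was lost without LG replicate 1, LG replicate 3 or HG replicate 1, with the length trend removed, and when libraries were scaled to an equal total or by median of ratios. PSMD2, the other large scaffold, was at -0.03 (adjusted p = 0.449).

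The other 8 subunits of the particle were not called, with log2 changes from -0.15 for the ATPase PSMC5 (adjusted p = 0.0515) to 0.17 for PSMD14, the deubiquitinase of the lid (adjusted p = 0.0859). PSMC2, PSMC4, PSMD3, PSMD6, PSMD8 and PSMD13 lay between them, from -0.04 to 0.10. Removing the length trend raised the count of subunits called higher from 7 to 12, and left PSMD4 as the 1 called lower. Without HG replicate 1, 7 were called higher and 4 lower, with a median log2 change of 0.05. The 4 were PSMD4, PSMC5 (-0.21, adjusted p = 0.000125), PSMC2 (-0.09, adjusted p = 0.0416) and PSMD13 (-0.11, adjusted p = 0.0365).

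**Figure D4:**
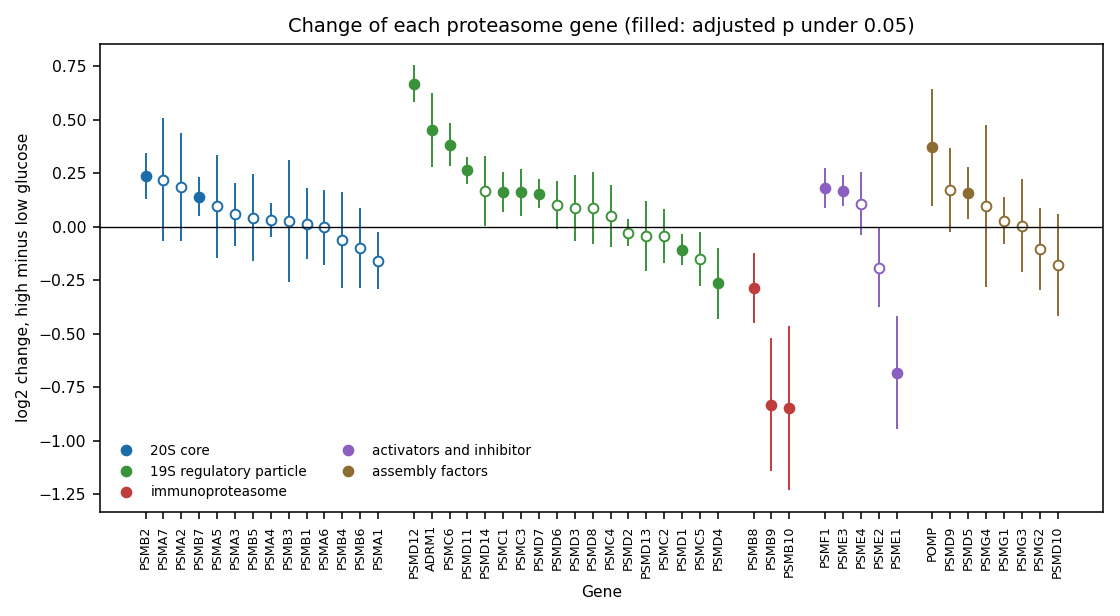
Log2 change (high minus low glucose, from limma) of each of the 48 proteasome genes with its 95% interval, ordered by size within the 5 classes, where filled points passed an adjusted p of 0.05. The 3 immunoproteasome genes and PSME1 lie lowest with PSMD4, PSMD12 lies highest at 0.67, and most core subunits have intervals across 0.

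Few subunits of the 20S core passed the test with all libraries. Of 14, 2 beta subunits rose, no alpha subunit was called, and the median log2 change was 0.04. Thus 14.3% were called higher and none lower, where 33.6% and 33.3% of genes with at least 5 CPM were called. Per kilobase, the core genes were the most abundant class, with a median of 106 CPM per kb at low and 114 CPM per kb at high glucose, beside 50.0 and 56.6 for the 19S particle and 16.5 and 8.97 for the immunoproteasome. PSMA7 had the highest level per kilobase of all members at low glucose, 244 CPM per kb, and PSMD5 the lowest, 4.24 CPM per kb.

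PSMB2 (ENSG00000126067.12, chr1:35599541-35641526), a noncatalytic beta subunit, was at 96.9, 94.9, 91.8 and 93.9 CPM at low glucose and 121, 105, 113 and 108 CPM at high glucose. The groups did not overlap, and its log2 change of 0.24 (SE 0.0458, adjusted p = 0.00440) held without any 1 library. PSMB2 has a long transcript for a core subunit, of 4426 bases.

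The alpha subunits PSMA7 and PSMA2 had larger mean differences than PSMB7 but were not called with all libraries. PSMA7 (ENSG00000101182.15) was at 239, 234, 233 and 232 CPM at low glucose and 350.3, 275, 254 and 228 CPM at high glucose. The low glucose libraries were tightly grouped, whereas the high glucose libraries ran from below them to far above them, and the log2 change was 0.22 (95% interval -0.07 to 0.51, adjusted p = 0.188). PSMA2 (ENSG00000106588.11) behaved alike, at 157, 152, 156 and 146 CPM and 215, 178, 151 and 158 CPM, with overlap and a log2 change of 0.19 (95% interval -0.07 to 0.44, adjusted p = 0.207). Without HG replicate 1 the log2 changes of PSMA7 and PSMA2 were 0.10 and 0.08 and were not called, whereas with the length trend removed both were called higher, at 0.34 and 0.28. All of the PSMA2 sequence words also occur in other gene models. The model that held the most was at 25.7 CPM and fell from 30.8 to 20.6 CPM, so the PSMA2 level is uncertain. The other 8 core subunits, PSMA1, PSMA3 to PSMA6, PSMB1, PSMB3 and PSMB4, were not called, with log2 changes from -0.16 for PSMA1 (adjusted p = 0.0548) to 0.09 for PSMA5.

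The direction of the core depended on whether HG replicate 1 was kept and on how all libraries were corrected or scaled. Removal of the length trend and quantile normalization act on every library, not only on HG replicate 1. Without that library, 2 core subunits rose (PSMB2 and PSMB7), 3 were called lower (PSMA1, PSMB4 and PSMB6), and the median log2 change turned to -0.02. With the length trend removed, 9 rose, none was called lower, and the median was 0.14. Under quantile normalization the median was -0.08.

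The same treatments moved the counts over all 48 members. Without HG replicate 1, 13 were called higher and 14 lower, where the whole table gave 22.8% and 25.4%. With the length trend removed, 25 were called higher and 5 lower, where 35.1% and 34.4% of the 14227 genes in that fit were called, and with quantile normalization 5 were called higher and 10 lower, beside 22.6% and 22.9%. Quantile normalization ended the calls of PSMB2, PSMB7, PSMC1, PSMC3, PSMD7, PSME3, PSMF1 and POMP. In all of these, PSMB8, PSMB9, PSMB10, PSME1 and PSMD4 were called lower and PSMD12, ADRM1, PSMC6 and PSMD11 were called higher.

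**Figure D5:**
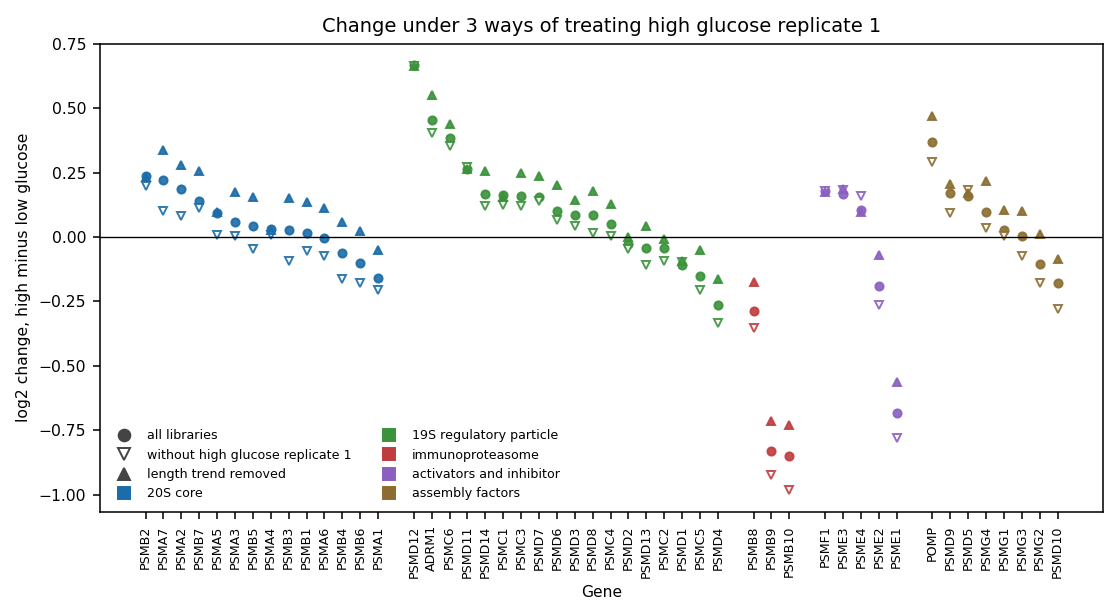
Log2 change of each of the 48 proteasome genes with all libraries (circles), without HG replicate 1 (open triangles) and with the length trend removed (filled upward triangles), by class. The 3 estimates keep their sign in PSMD12, ADRM1, PSMC6, PSMB9, PSMB10 and PSME1, whereas core subunits such as PSMB5 and PSMB6 lie on both sides of 0.

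Of the 8 assembly factors, 2 rose and none was called lower, with a median log2 change of 0.06. At 25%, the share that rose stands beside 33.6% of genes with at least 5 CPM, of which 33.3% were called lower. POMP (ENSG00000132963.8, chr13:28659130-28678959), the chaperone that completes the core and is degraded as its first substrate, was at 53.3, 48.4, 40.9 and 44.1 CPM at low glucose and 71.4, 63.3, 53.2 and 55.2 CPM at high glucose. The ranges touched, since HG replicate 3 lay just under LG replicate 1. The log2 change was 0.37 (SE 0.12, adjusted p = 0.0345), and the call was lost without LG replicate 2, 3 or 4 or without HG replicate 1 or 2, at an adjusted p of 0.0601 to 0.0849.

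PSMD5, PSMD9 and PSMD10 are chaperones of the 19S base. PSMD10 (ENSG00000101843.19), also known as gankyrin, was at 52.3, 48.4, 52.6 and 51.8 CPM and 55.8, 44.6, 40.1 and 41.6 CPM, with HG replicate 1 above all low glucose libraries and the other 3 high glucose libraries below them. Its log2 change was -0.18 (95% interval -0.42 to 0.06, adjusted p = 0.194), and -0.28 without HG replicate 1 (adjusted p = 0.00322). PSMD9 (ENSG00000110801.13) was at 34.0, 37.4, 36.4 and 34.1 CPM and 46.9, 40.2, 37.7 and 36.0 CPM, which overlapped, with a log2 change of 0.17 (95% interval -0.02 to 0.37, adjusted p = 0.138). Without HG replicate 1 it was 0.10 and not called, and with the length trend removed it was called higher, at 0.20 (adjusted p = 0.0125).

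PSMD5 rose from 14.3 ± 0.621 to 16.1 ± 0.933 CPM (log2 change 0.16, adjusted p = 0.0385), a call kept in 3 of the 8 fits that left out a library and lost without LG replicate 2, 3 or 4 or HG replicate 3 or 4, and also with the length trend removed or a minimum mean of 1 or 5 CPM. The 4 chaperones of the alpha ring, PSMG1 to PSMG4, were not called, with log2 changes from -0.10 for PSMG2 to 0.10 for PSMG4. PSMG2 passed as lower only without HG replicate 1, at -0.18 (adjusted p = 0.0295).

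Genes that control proteasome transcription were read beside the subunits, with AKIRIN2, which guides finished proteasomes into the nucleus. Of these 8 listed genes, 6 rose, AKIRIN2 among them, and none was called lower, with a median log2 change of 0.53. The share called higher was 22.0% of all genes and 33.6% of those with at least 5 CPM. The small MAF proteins, which pair with NFE2L1 and NFE2L2 on DNA, changed most. MAFG was at 182, 184, 179 and 187 CPM at low and 634, 619, 601 and 572 CPM at high glucose. MAFF went from 17.4 ± 1.80 to 63.3 ± 4.45 CPM and MAFK from 45.8 ± 2.95 to 129.7 ± 11.7 CPM, and the log2 changes of MAFF, MAFG and MAFK were 1.81, 1.72 and 1.48. AKIRIN2 rose by 0.69 on the log2 scale (adjusted p = 8.00e-05, limma).

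Proteins that work with the particle were mixed, with 7 of 15 bound enzymes and shuttles higher and 3 lower, where 33.6% and 33.3% of genes with at least 5 CPM were called. UBQLN4 and UBQLN1, shuttles that carry ubiquitinated proteins to the proteasome, rose from 35.1 ± 2.06 to 69.4 ± 4.54 and from 171 ± 2.63 to 253 ± 14.9 CPM. ECPAS, an adaptor that restrains the 26S particle, and ZFAND5, which stimulates it, fell by 0.36 and 0.32 on the log2 scale.

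Upstream of the particle, 1 of 5 ubiquitin and activating enzyme genes was called, the activating enzyme UBA6, which rose by 0.39. Of 6 genes for the VCP segregase, which pulls ubiquitinated proteins out of complexes, and its adaptors, 2 rose (NSFL1C and FAF1) and 2 fell (UBXN1 and VCP), again beside 33.6% and 33.3% of genes with at least 5 CPM, with log2 changes of 0.29, 0.30, -0.50 and -0.18.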

How the data were processed

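The authors deposited 1 table of CPM values, scaled with edgeR TMM factors, for 8 libraries. The submitters' processing notes name the hg38 build, the study's methods for tumors name an earlier one, and the aligner and counting tool for these cell line libraries are not given in the sources used here. Of 21077 lines, 18 pseudoautosomal Y copies identical to the X copies were left out. Low values lay on steps of about 1 read but were not whole, so reads were estimated and no count test was run.

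Values were analysed as log2(CPM + 1) in R 4.3.3 by limma 3.58.1, as a 2-sided moderated test without covariates in which eBayes let the variance follow the mean, adjusted by Benjamini-Hochberg over 21059 genes at 0.05. The step was tested on simulated data. Ratios were compared by exact permutation over 70 assignments. Groups came from the sample titles. Some genes of the other lists are not reported here.

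Transcript lengths and shared 31-base words came from GENCODE canonical transcripts on GRCh37, and positions and promoters from RefSeq GRCh38.p14, so they describe the annotation and not the alignment. Words were shared by over 10% in 11 members, and 7 members overlap an exon on the opposite strand, which the table could not separate if strand was not used in counting. Values in every library are given for the inducible subunits, their counterparts and the 3 members of each class with the largest change. For the other lists, levels or log2 changes are given for at most the 4 genes with the smallest adjusted p, plus TAP1, IRF1, TAP2, NFE2L1 and the genes of the marker check. PSMC1, PSMC3, PSMD1, PSMD4, PSMD5, PSMD7, PSMD11 and PSME3 are named as called members. The members, lists and comparisons were chosen with earlier results of these data known. Alternatives were a pseudocount of 0.1, minimum means of 1 and 5 CPM, other scalings, a replicate block, removal of a length trend (5 degrees of freedom) and leaving out each library. Depths and read floors cover counting error only.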

Additional observations from a re-analysis of the deposited data

Results flagged for a closer look

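A library far from the other 3 of its group was looked for in 114 groups of 4. These covered the members, the log2 ratios of inducible to constitutive subunits, and the summed CPM of each class and of all members. The gap to the nearest library, as a share of the whole range of the group, exceeded Dixon's 95% limit for 4 values in 6 groups, where chance gives about 5.7 (1 in 20).

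At low glucose, 4 values were marked. PSMD11 in LG replicate 3 was at 96.4 CPM, below 100.9 to 101.7 CPM in the others (share 0.846). LG replicate 4 was lowest for 2 beta subunits, PSMB1 at 130.5 CPM beside 136.3 to 137.4 CPM (0.839) and PSMB4 at 190.04 CPM beside 194.4 to 194.6 CPM (0.952). The summed level of PSMB8, PSMB9 and PSMB10 was 91.1 CPM in LG replicate 3 and 85.99 to 86.5 CPM in the other low glucose libraries (0.901).

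At high glucose, both marked values came from replicate 1, the library with the length trend described above. PSMC5 was at 180.1 CPM there and at 152.8 to 155.8 CPM in the other 3 (share 0.889). The summed immunoproteasome level was 74.8 CPM in HG replicate 1 and 59.1 to 61.5 CPM in the others (0.846), and all 4 of these sums lay below the lowest low glucose sum of 85.99 CPM. The part of transcript length in these values was not tested separately.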

How the results depend on the processing

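Calls were followed over alternatives for 46 genes, the members called or given in full and some genes of the other lists. The remaining uncalled members were outside this count. In 782 comparisons with an alternative, the direction and the side of the threshold stayed the same in 730. The call was lost in 34, gained in 14, and the sign turned in 4. The turned signs were PSMB5 at -0.087 with quantile normalization and -0.047 without HG replicate 1, PSMB6 at 0.023 with the length trend removed, and RPS27A at 0.017 with quantile normalization. When a library was left out, PSMB5 ranged from -0.047 to 0.084. None of these genes was called in either setting. Signs also turned in members outside the count. Examples without HG replicate 1 were PSMB1, from 0.015 to -0.056, and PSMB3, from 0.028 to -0.092. With the length trend removed, PSMB4 went from -0.063 to 0.057 and PSMD13 from -0.042 to 0.044.

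Members called higher numbered 13, and 5 with quantile normalization, 25 with the length trend removed and 9 to 13 when a library was left out. Members called lower numbered 6, and 10 with quantile normalization and 5 to 14 when a library was left out, the 14 without HG replicate 1. Class medians moved with quantile normalization to -0.083 for the core, 0.016 for the 19S particle and -0.0012 for the activators, and to 0.17 for the 19S particle with the length trend removed. Left-out libraries gave medians of -0.02 to 0.07 for the core, 0.05 to 0.14 for the 19S particle, -0.92 to -0.72 for the immunoproteasome, 0.060 to 0.16 for the activators and 0.01 to 0.10 for the assembly factors. Why the settings differ was not tested.

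The log2 ratio differences ranged from -0.35 to -0.31 for PSMB8 to PSMB5, -0.90 to -0.71 for PSMB9 to PSMB6 and -1.23 to -0.95 for PSMB10 to PSMB7 when a library was left out, where 3 against 4 libraries cannot give an exact permutation p under 0.0571.

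Deviations of same-numbered libraries correlated at -0.04 to 0.07 across genes, and those of libraries with different numbers at -0.14 to 0.07. The labels do not state whether equal numbers mark paired cultures, and these correlations across genes cannot settle it. With the number as a replicate block, 12 members were called higher and 6 lower, and the call of PSMD5 was lost. All 48 members lay far above the value of 3 reads, whereas the shared sequence of 11 of them and the unstated use of strand limit single genes.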

Other observations

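The exact 10-base run shared by PSMB8, PSMB10, PSME1, PSME2 and PSMG4 was in the promoters of 29 genes of the table. Of these, 6 were called higher and 10 lower, beside 25.9% higher and 28.0% lower over the 13093 genes with a promoter. With the proteasome genes left out, 24 remained, 6 higher and 7 lower, with a median log2 change of -0.02. Of these, 15 had a mean of at least 5 CPM, 6 called higher and 3 lower, with a median log2 change of 0.09. Over all genes with a promoter at that level, 33.7% were called higher and 33.1% lower. Among the 24, RNF31, a subunit of the linear ubiquitin ligase, was at 16.3 and 10.7 CPM, PARP14 at 50.6 and 40.4 CPM, and ZNF207 at 140.7 and 162.04 CPM, with log2 changes of -0.57, -0.32 and 0.20. These 3 were chosen after their values had been seen, and no test was made of the group. TAP1 and TAP2 also hold the run in their promoters and did not fall. Their log2 changes were -0.02 and 0.24 (adjusted p = 0.898 and 0.00198, limma).

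B2M, the invariant chain of MHC class I, was listed at 0 to 0.165 CPM in all 8 libraries, at or below the value of 3 reads in each, although TAPBP was at 138, 137, 140.1 and 147 CPM in the low glucose libraries. The reason was not tested, and no fold change is given.

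NFE2L1 was at 145, 153, 142 and 146 CPM at low and 133, 152, 157 and 148 CPM at high glucose, with a log2 change of 0.0052, beside log2 changes above 1.4 of the 3 small MAF genes with which its protein pairs. NFE2L2 rose by 0.17 (adjusted p = 0.00274).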
